A study of Mus musculus with 4 samples.

Results

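The liver X receptors (LXR) and genes grouped with them for cholesterol export and related lipid handling were followed through 9 member genes. The receptor genes were Nr1h2 and Nr1h3, and the exporter genes Abca1, Abcg1 and Abcg2. The others were the oxysterol enzyme gene Ch25h, the ubiquitin ligase gene Mylip, the apolipoprotein gene Apoe and the phospholipid acyltransferase gene Lpcat3. A member was measured where the platform annotation gave a feature its symbol and no other, and the brightest such feature, by its mean over the arrays, stood for a gene with several. By this rule 8 of the 9 members were measured, out of 22180 genes with such a feature, and Nr1h2, the gene of LXR beta, had none, so its expression is not analysed here. The data are 4 microarrays of macrophages, phagocytic cells grown in culture from the bone marrow of mice. The knockout genotype, PP2ACαfl/fl;lyM-Cre, carried floxed PP2ACα alleles (the gene is Ppp2ca, for a catalytic subunit of the phosphatase PP2A) and a Cre that removes exon 1 in myeloid cells (2 arrays). The control genotype, PP2ACαfl/fl, carried the floxed alleles without Cre (2 arrays). All cells had grown for 6 days with L-cell supernatant and had received 100 ng/ml of lipopolysaccharide (LPS) for 2 hours, so the arrays compare genotypes after LPS and hold no unstimulated cells. The labels call the replicates biological and do not say whether separate mice gave them. The p-values therefore rest on the spread between these arrays, moderated towards a variance pooled over the tested genes.

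LXR alpha and LXR beta are nuclear receptors that bind oxysterols, the oxidised forms of cholesterol, and act on DNA as partners of the retinoid X receptors. In macrophages loaded with cholesterol they switch on the genes of exporters and of lipoprotein components, through which the surplus leaves the cell for high-density lipoprotein, and they lower the uptake of more. The sterol-regulated factor SREBP-2 works the other way, raising cholesterol synthesis and uptake when sterol is scarce, and the oxysterol that the Ch25h enzyme makes blocks its activation. Both systems are tied to the response to LPS, since Ch25h is induced by LPS and by interferon in mouse macrophages and activated LXR restrains inflammatory genes.

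Of the members measured, Ch25h and Abcg1 rose in knockout macrophages, 1.55-fold and 1.37-fold, and none fell. Nr1h3, Abca1 and Apoe each differed by less than 0.03 log2 units between the genotypes, and Abcg2, Mylip and Lpcat3 differed by 0.16 to 0.21 log2 units in size without passing the test. The test was limma's moderated linear model over all 12542 genes whose mean reached the median of all features, 3.53 log2 units, with Benjamini-Hochberg adjustment over those genes, and a gene is said to rise or fall where the adjusted p was under 0.05. All 8 members passed the filter on low values. Against these 2 of 8 members, 6.79% of all tested genes passed (3.30% higher and 3.49% lower in knockout). The members' differences had a median of 0.12 log2 units, beside 0.0076 over all tested genes, and 6 were above and 2 below 0. Array medians averaged 0.042 log2 units higher in knockout. With each array centred on its median, Apoe and Nr1h3 lay below 0, at -0.035 and -0.017. In 5 members both knockout arrays lay on one side of both control arrays, as they did in 55.3% of all tested genes.

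Before the members, the targeted gene was read as a check of the labels. Ppp2ca stood at 4.36 and 3.39 log2 units on the knockout arrays, against 8.25 and 7.59 on the control arrays. It fell by 4.04 log2 units (SE 0.36, limma adjusted p = 0.0076), to a level near the filter, so no fold is given. The difference was -2.14 with the mean of its features, and -3.71 and not called without control replicate 1. Ppp2ca was also not called with all features as units (limma adjusted p = 0.075). Nor was it called by the linear model without pooling of the variance (adjusted p = 0.22). Array medians lay between 3.50 and 3.57 log2 units, and Pearson correlations between arrays, taken across features, were 0.986 to 0.990. The macrophage markers Adgre1, Csf1r, Cd68, Mertk, Fcgr1, Itgam and Cd14 averaged 10.95 and 10.93 log2 units on the knockout arrays and 10.81 and 10.69 on the control arrays, and of these 7 Fcgr1, an Fc receptor gene, rose, by 0.94 (SE 0.12, limma adjusted p = 0.016; no longer called without any 1 of the 4 arrays, at 0.055 to 0.097). Of 31 markers of T and NK cells, B cells, neutrophils, dendritic cells, erythroid cells and stroma with a feature, 19 lay below the filter, among them the T cell receptor genes Cd3e and Cd3d. None of the other 12 was called, but 10 of them were higher in knockout, with differences from -0.19 for Pf4 to 0.49 for Cd4. Mpo, among these 10, had a control mean of 3.47 log2 units, below the filter, and a knockout mean of 3.72. It was tested only through its knockout arrays, so the count of higher markers rests in part on the filter. Cd4 was called with the stricter filter (limma adjusted p = 0.030) and the variance trend (0.033), and Ccr7, a marker of mature dendritic cells that differed by 0.40, with the stricter filter (0.034). Their part in the members' differences was not tested. In RNA from a whole culture, fewer cells of a type and less RNA per cell cannot be told apart.

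The promoters of the member that rose most and of the best known LXR target are shown so that the letters searched for motifs can be read. They are the 250 bases before the start site in RefSeq, build GRCm38.p6, printed 5′ to 3′ on the gene's strand. Ch25h lies on the minus strand at chr19:34475149-34475398, and Abca1 on the minus strand at chr4:53159896-53160145. Capitals mark matches to the motifs searched.
Ch25h: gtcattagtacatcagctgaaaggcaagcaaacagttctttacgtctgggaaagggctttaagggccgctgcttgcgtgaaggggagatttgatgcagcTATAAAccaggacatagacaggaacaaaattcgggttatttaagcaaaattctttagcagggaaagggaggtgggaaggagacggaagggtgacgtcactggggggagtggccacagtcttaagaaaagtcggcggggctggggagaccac
Abca1: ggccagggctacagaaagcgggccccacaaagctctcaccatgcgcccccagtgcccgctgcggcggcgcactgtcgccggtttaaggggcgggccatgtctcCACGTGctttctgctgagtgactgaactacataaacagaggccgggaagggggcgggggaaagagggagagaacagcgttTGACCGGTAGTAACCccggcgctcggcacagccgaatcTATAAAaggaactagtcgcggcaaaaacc
Promoter entries were found for 8 of the 9 members, all but Abcg1, with 13 windows in all because some genes have several start sites. Each was searched on both strands for the direct repeat bound by LXR with its partner in its exact form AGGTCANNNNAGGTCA, for a looser form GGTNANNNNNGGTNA, for the interferon response core GAAANNGAAA, for the E-box CACGTG and for TATAAA. No member held the exact repeat, which was in 0.0152% of 32851 promoter windows of this length. The looser repeat was in Abca1 as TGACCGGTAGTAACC, from 67 to 53 bases before the start on the opposite strand, and in 0.621% of all windows. Abca1 also held the E-box, from 147 to 142 bases before the start, as did 6.02% of windows. The interferon core was in none of the 13 and in 2.98% of all windows. TATAAA was in 4 of the 13 member windows, those of Abca1, Mylip and Ch25h and 1 of the 3 of Apoe, and in 12.4% of all windows. In Ch25h it lay from 151 to 146 bases before the start, and in Abca1 from 29 to 24 bases before it. A match describes the letters only, and sites outside these windows were not searched.

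The measured receptor gene did not pass the test. Nr1h3, which encodes LXR alpha, the form known from macrophages, liver and fat, read 6.11 and 5.97 log2 units on the knockout arrays, against 5.98 and 6.05 on the control arrays. The groups overlapped, with 1 knockout array the lowest of the 4 and the other the highest. The difference was 0.025 log2 units (SE 0.096, 95% interval -0.22 to 0.27, limma adjusted p = 0.90), so the interval leaves room for a change of up to 0.27 log2 units in size.

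Among the enzymes that make oxysterols, Ch25h rose. Its product, cholesterol hydroxylase, makes an oxysterol that binds LXR, blocks SREBP activation and hinders the entry of enveloped viruses. Ch25h read 7.36 and 7.19 log2 units on the knockout arrays, against 6.69 and 6.60 on the control arrays. Both knockout arrays were above both control arrays, by a gap wider than either pair's own spread. The group means were 7.28 ± 0.12 log2 units in knockout and 6.64 ± 0.06 in control macrophages (SD, n = 2 each), a difference of 0.63 (SE 0.10, 95% interval 0.38 to 0.89, limma adjusted p = 0.030). Ranked by signed difference it was number 272 from the top of 12542 tested genes, and it was the member past the 1.5-fold cutoff that the series' design text applies to group means, which 5.24% of tested genes passed. A further feature of Ch25h was dim, at 3.35 and 3.45 log2 units on the knockout arrays and 3.20 and 3.23 on the control arrays, below the filter, and differed by 0.18. The call of Ch25h was lost when any 1 array was left out, with differences of 0.55 to 0.72 and limma adjusted p-values of 0.15 without knockout replicate 1, 0.11 without knockout replicate 2, and 0.093 and 0.10 when control replicates 1 and 2 were dropped. With the mean of both features the difference was 0.41 and not called (limma adjusted p = 0.051).

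Of the exporter genes, Abcg1 rose, while Abca1 and Abcg2 did not pass. Abcg1, a transporter that passes cholesterol to high-density lipoprotein, read 9.07 and 8.97 log2 units on the knockout arrays, against 8.60 and 8.52 on the control arrays. Both knockout arrays were above both control arrays. Its means were 9.02 ± 0.07 in knockout and 8.56 ± 0.05 in control macrophages (SD, n = 2 each), a difference of 0.46 (SE 0.092, 95% interval 0.23 to 0.69, limma adjusted p = 0.048). This lies close to the threshold, and the limma adjusted p was 0.22 and 0.19 when knockout replicates 1 and 2 were dropped, 0.12 and 0.13 when control replicates 1 and 2 were dropped, and 0.069 with each array centred on its median.

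Abca1, the transporter that loads cholesterol and phospholipid onto apolipoprotein A-I, read 9.70 and 9.75 log2 units on the knockout arrays, against 9.80 and 9.68 on the control arrays. Both knockout arrays lay between the control arrays. The difference was -0.017 log2 units (SE 0.093, 95% interval -0.25 to 0.21, limma adjusted p = 0.93). The intervals of Abcg1 and Abca1, which start at 0.23 and end at 0.21, do not overlap, but the difference between both genes' changes was not tested.

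Abcg2, a transporter known for exporting drugs and porphyrins, read 5.72 and 5.83 log2 units on the knockout arrays, against 5.52 and 5.61 on the control arrays. The groups did not overlap, but the difference of 0.21 (SE 0.093, 95% interval -0.025 to 0.44) did not pass (limma adjusted p = 0.24). Apoe, whose protein macrophages secrete as an acceptor of exported cholesterol, read 6.27 and 6.25 log2 units on the knockout arrays, inside the control arrays at 6.34 and 6.18. Its difference was 0.0063 (SE 0.097, 95% interval -0.24 to 0.25, limma adjusted p = 0.98).

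**Figure D1:**
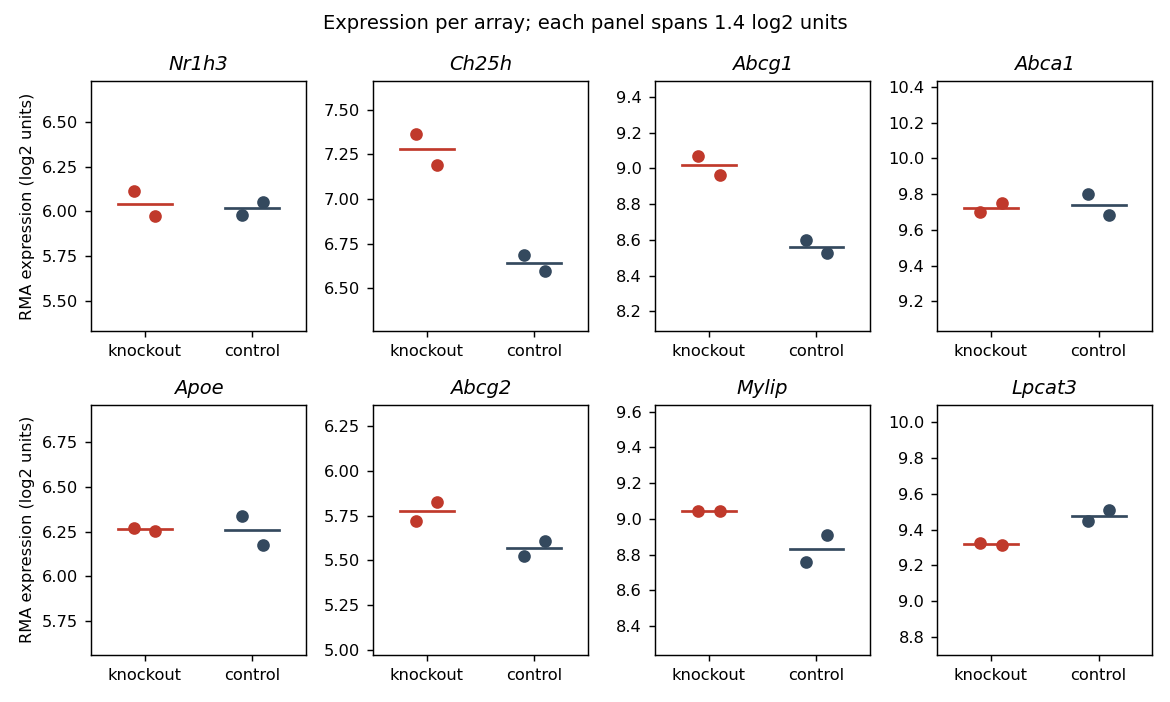
RMA expression in log2 units of the 8 measured genes, with a point for each of the 4 arrays and a line at the mean of each genotype, knockout left of control; every panel spans the same number of log2 units. The knockout points lie clear above the control points for Ch25h (7.36 and 7.19 against 6.69 and 6.60) and Abcg1 (9.07 and 8.97 against 8.60 and 8.52), and among the control points for Abca1 and Apoe.

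The other targets act on uptake and on membranes. Mylip encodes IDOL, the ligase that marks lipoprotein receptors for breakdown. It read 9.04 and 9.05 log2 units on the knockout arrays, against 8.76 and 8.91 on the control arrays. All knockout values were above the control values, and the difference of 0.21 (SE 0.095, 95% interval -0.025 to 0.45) did not pass (limma adjusted p = 0.24).

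Lpcat3, whose enzyme puts polyunsaturated chains into membrane phospholipids, read 9.32 and 9.31 log2 units on the knockout arrays, against 9.45 and 9.51 on the control arrays. It was the member with both knockout arrays below both control arrays. The difference of -0.16 (SE 0.086, 95% interval -0.37 to 0.054) did not pass (limma adjusted p = 0.31).

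**Figure D2:**
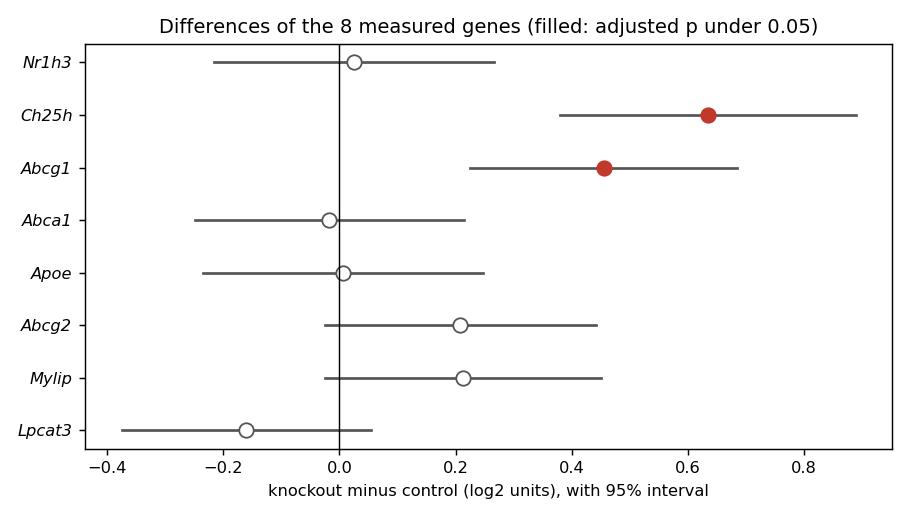
Differences of knockout minus control in log2 units for the 8 measured genes, with limma's 95% intervals as bars and filled points where the adjusted p was under 0.05. The intervals of Ch25h (0.38 to 0.89) and Abcg1 (0.23 to 0.69) lie above 0, and the other 6 cross it.

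With 2 arrays a genotype, every value rests on each array in turn, and an exact permutation test of a single gene cannot give a two-sided p below 0.333. The sign of the difference stayed positive for Ch25h, Abcg1, Abcg2 and Mylip and negative for Lpcat3 with any 1 array left out, which groups without overlap fix whatever array is dropped. The near-0 differences of Nr1h3, Abca1 and Apoe changed sign with the array left out.

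**Figure D3:**
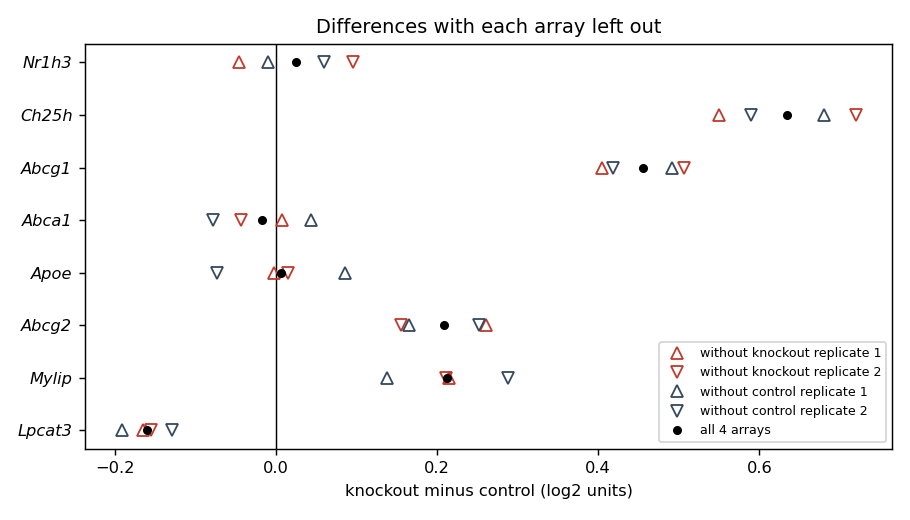
Differences of knockout minus control in log2 units for the 8 measured genes over all 4 arrays (black points) and with each array left out (triangles, red for a knockout array and blue-grey for a control array). Ch25h ranged from 0.55 to 0.72 and Abcg1 from 0.40 to 0.51, while Nr1h3, Abca1 and Apoe lie on both sides of 0.

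Genes whose values over the 4 arrays were most like those of the called members were found by the Euclidean distance between centred log2 values. For Ch25h these were 4833419F23Rik (distance 0.034), 9330175E14Rik (0.044) and Sertad1 (0.057), which differed by 0.63, 0.62 and 0.68 log2 units. For Abcg1 they were Kif21b (0.016), Ifit1bl1 (0.028) and Arrdc3 (0.045), which differed by 0.45, 0.43 and 0.49. The limma adjusted p was under 0.05 for all of these but Kif21b (0.052) and Ifit1bl1 (0.056), and no such call was kept without any 1 of the 4 arrays (0.076 to 0.21). Because these genes were picked for values like those of a called member on the same arrays, their differences and calls follow from the choice. In 9330175E14Rik the control arrays, at 3.58 and 3.48 log2 units, also averaged below the filter. It was tested only through its knockout arrays, at 4.27 and 4.04, and its call is no support for a rise. The stricter filter removed it. The measure describes 4 arrays and says nothing of shared function.

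Around the members, 9 lists of the LXR and cholesterol pathway held 114 further genes, of which 75 were tested. Of these 2 rose and 8 fell, or 13.3% called against 6.79% of all tested genes, with a median difference of 0.014 log2 units. The called falls were Fasn, Cyp51, Sqle, Lss, Stard4, Lrp8, Gramd1b and Mboat1, and the called rises were Cyp27a1 and Vldlr, the second of which passed the filter only through its knockout arrays. The lists were written with earlier results of these data known, which included falls of sterol synthesis genes, so the share is a description. With 1 array left out, between 0 and 2 of the 10 calls were made: Fasn was called without knockout replicate 2 (limma adjusted p = 0.049), control replicate 1 (0.039) or control replicate 2 (0.041) but not without knockout replicate 1 (0.051), and Gramd1b was called without control replicate 2 (0.048).

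Of the genes whose proteins work on DNA with LXR, none of 10 tested retinoid X receptors, corepressors and coactivators was called, and the median was 0.14 log2 units. The nearest was Tbl1xr1, a subunit of the corepressor complex, at 9.44 and 9.50 log2 units on the knockout arrays and 9.03 and 9.06 on the control arrays, a difference of 0.42 (limma adjusted p = 0.051; called with the stricter filter at 0.025 and with the variance trend at 0.0071). Rxra, the gene of the main partner of LXR in macrophages, differed by -0.22 (SE 0.10, limma adjusted p = 0.25). Among 10 tested genes of other nuclear receptors of the same subfamily none was called. Pparg, a fatty acid receptor known to raise Nr1h3, differed by 0.46 (SE 0.12, limma adjusted p = 0.082; called with the stricter filter at 0.048 and with the variance trend at 0.019) and Nr1i3, near the filter level, by -0.34 (limma adjusted p = 0.15). The knockout mean of Nr1i3, 3.38 log2 units, lies below the filter, so it was tested only through its control arrays.

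Other LXR targets gave a single call, and it was downward. Of 9 tested targets beyond the members, Fasn, the fatty acid synthase gene that LXR drives through SREBP-1c, stood at 6.22 and 6.26 log2 units on the knockout arrays, against 7.34 and 7.31 on the control arrays. Fasn fell by 1.08 log2 units (SE 0.085, limma adjusted p = 0.0060; 0.051 without knockout replicate 1). The list's median was 0.025 log2 units, with 5 genes above and 4 below 0. Below 0 but not called were also Scd1, at -0.71 (limma adjusted p = 0.10), and Srebf1, at -0.31 (0.22). The largest positive difference was 0.24 for Smpdl3a (limma adjusted p = 0.16).

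A further enzyme of oxysterol synthesis rose beside Ch25h. Cyp27a1, which encodes a mitochondrial sterol hydroxylase, read 7.63 and 7.82 log2 units on the knockout arrays, against 6.92 and 7.11 on the control arrays. Both knockout arrays were above both control arrays, and the difference was 0.71 (SE 0.12, 1.64-fold, limma adjusted p = 0.031). The limma adjusted p was between 0.073 and 0.17 when any 1 of the 4 arrays was left out. It was the lone call among 3 tested genes of the list, whose other 5 members lay below the filter.

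Genes of the SREBP-2 system differed in the downward direction where they were called. Of 12 tested, 4 fell and none rose, with a median of -0.26 log2 units, while 3.49% of all tested genes fell and 3.30% rose. The list includes genes of sterol synthesis, whose falls were known from earlier results when it was written, so the count is a description. Cyp51 differed by -0.78 (limma adjusted p = 0.014), Sqle by -0.78 (0.015) and Lss by -0.58 (0.041); these encode successive enzymes on the way from squalene to cholesterol. Stard4, a sterol carrier, differed by -0.52 (limma adjusted p = 0.042). None of these 4 calls was made with any 1 of the 4 arrays left out, with adjusted p-values between 0.058 and 0.19.

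Of the lipoprotein receptors that the Mylip protein marks for breakdown, Lrp8 and Vldlr were measured, and Lrp8 fell. Lrp8, the apolipoprotein E receptor 2 gene, read 5.66 and 5.58 log2 units on the knockout arrays, against 6.30 and 6.21 on the control arrays, a difference of -0.63 (limma adjusted p = 0.023). Vldlr read 3.94 and 4.01 log2 units on the knockout arrays, against 3.54 and 3.38 on the control arrays, a difference of 0.51 (limma adjusted p = 0.044). Its control mean of 3.46 lies below the filter of 3.53, so it was tested only through its knockout arrays, and its call is no support for a rise. It was not called with quantile normalization (0.062), median centring (0.058) or the variance trend (0.059), and the stricter filter removed it. Neither was called with any 1 of the 4 arrays left out (0.070 to 0.22). The other 4 tested receptors of the list, Lrp1, Scarb1, Cd36 and Msr1, were not called, and all 4 had negative differences.

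Genes that move and store cholesterol inside the cell, the other transporters and the other acyltransferases gave 2 calls, both downward. Gramd1b, whose protein carries cholesterol from the plasma membrane to the endoplasmic reticulum, read 8.26 and 8.29 log2 units on the knockout arrays, against 9.19 and 8.99 on the control arrays. It fell by 0.82 log2 units (limma adjusted p = 0.016), alone among 12 tested genes of its list, and without knockout replicate 1 or 2 or control replicate 1 it was not called (0.067 to 0.10). Mboat1, a lysophospholipid acyltransferase, fell by 0.75 log2 units (limma adjusted p = 0.018; 0.054 to 0.12 with any 1 of the 4 arrays left out), alone among 5 tested relatives of Lpcat3. Of 8 tested ABC transporters of subfamilies A and G beyond the members none was called. The largest differences among them were 0.33 for Abca8b (limma adjusted p = 0.082) and 0.31 for Abcg3 (0.14). The control mean of Abca8b, 3.51 log2 units, lies below the filter, so it was tested only through its knockout arrays.

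**Figure D4:**
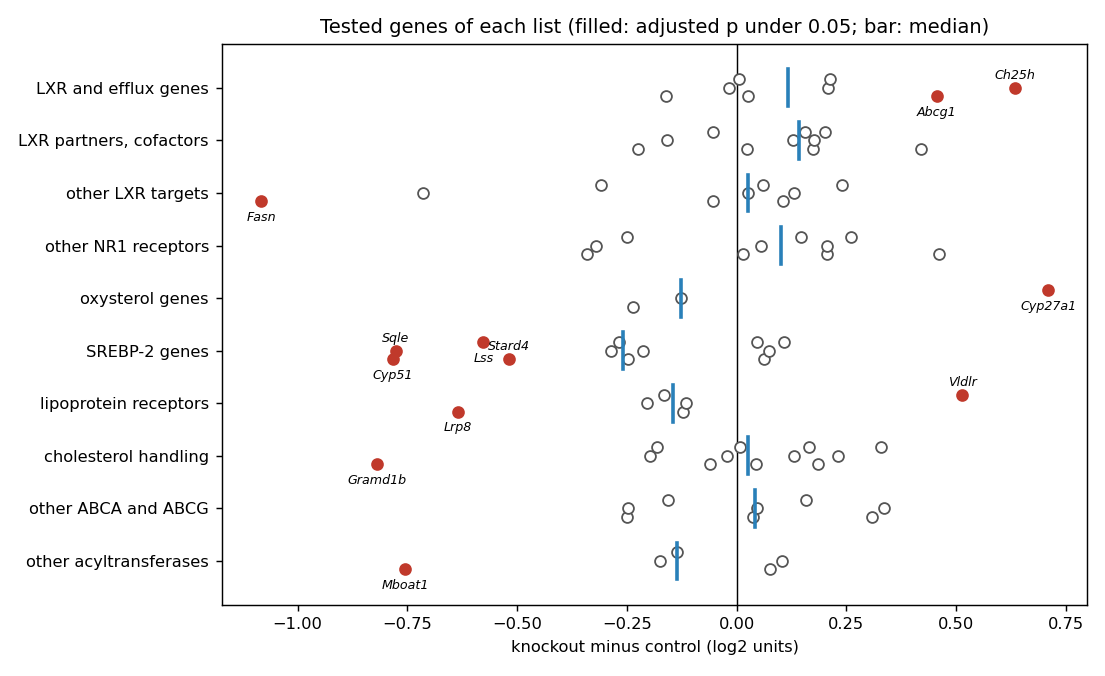
Differences of knockout minus control in log2 units for each tested gene of the members and of the 9 pathway lists, with filled, named points where the adjusted p was under 0.05 and a bar at each list's median. Ch25h (0.63), Abcg1 (0.46), Cyp27a1 (0.71) and Vldlr (0.51) lie to the right, and the called genes to the left run from Stard4 (-0.52) to Fasn (-1.08). Vldlr was tested only through its knockout arrays, so its call is no support for a rise.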

How the data were processed

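Total RNA was labelled from 400 ng and measured on 4 one-colour arrays, 2 per genotype. The deposited values are on the log2 scale: per the series' design text, the authors background-adjusted, normalized and log-transformed the intensities with the RMA algorithm, and the submitters' processing notes name oligo and RMA. The genome build is not given in the sources used here. Normalization between arrays removes changes of total RNA per cell, and differences of dim features are understated.

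Of 41345 features, 23521 had 1 gene symbol in the platform annotation, 1814 had several and 16010 had none. The brightest feature stood for each of 22180 genes, and 12542 with a mean of at least 3.53 log2 units, the median over features, were tested in limma 3.58.1 under R 4.3.3 (two-sided, functions lmFit and eBayes, no block, Benjamini-Hochberg over those genes). Scripts were tested on simulated data. Promoters came from RefSeq (GRCm38.p6). The number of arrays limits the precision.

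The members, lists and naming rule were chosen with earlier results of these data known. The rule names all members, Ppp2ca, up to 4 called genes per list or otherwise the 2 with the largest difference, and the 3 genes with the most similar values to each called member. Other genes were named after their values were seen. Alternatives covered the filter, normalization, features, units of testing, arrays left out, replicate block, variance model, array weights and the fold cutoff.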

Additional observations from a re-analysis of the deposited data

How the results depend on the processing

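Against 852 called genes, 2 called members and 10 called pathway genes outside the members, the counts were 333, 0 and 5 with no filter, 15, 0 and 0 with all features as units, 312, 0 and 5 with the replicate block, and 0, 0 and 0 without pooling of the variance, where 2295 genes and 3 members had an unadjusted p under 0.05. The stricter filter called 1354 genes and the variance trend 1584, each with both members. The members called were 1 with quantile normalization, 1 with median centring, 1 with the mean of a gene's features, 1 with robust variance and 1 at the 1.5-fold cutoff. With 1 array left out, 96 to 174 genes, 0 members and 0 to 2 pathway genes were called, and 2 or 3 members had an unadjusted p under 0.05. The block is no pairing: the replicate numbers share no stated source, and the deviations of same-numbered arrays correlated at -0.036 across genes.

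No called gene named here changed direction in any alternative. Among the genes not called, some did. Apoe was at -0.0013 with quantile normalization, -0.035 with median centring and -0.073 to 0.086 with 1 array left out. Nr1h3 was at -0.017 with median centring and -0.045 to 0.095 with 1 array left out, and Abca1 at -0.078 to 0.044. Of the markers, Col1a1 was at -0.0013 and -0.0065 with quantile normalization and median centring, and with 1 array left out Pf4 ranged from -0.42 to 0.031 and Pdgfrb from -0.34 to 0.25. The cause was not tested. Abcg1 kept its call in 4 of 15 alternatives and Ch25h in 6 of 15.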
